A study of Mus musculus with 15 samples.

Results

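The cell cycle and mitosis genes are 46 genes that were looked up by symbol in a table of 18279 genes from 15 mouse tumors, and all 46 were found. They cover the G1 cyclins and their kinases, the cyclin E step, the transcription factors E2F1, E2F2, B-MYB and FOXM1, replication factors, and the cyclins, kinases and spindle proteins of mitosis. Bulk RNA sequencing was done on subcutaneous tumors of Renca, a renal carcinoma line that arose in a BALB/c mouse, grown in female Balb/c mice that were 4 to 6 weeks old when bought. The 3 groups of 5 tumors came from control cells with intact *Pbrm1* (tumors 1 to 5), from *Pbrm1* knockout clone 4 (tumors 6 to 10) and from *Pbrm1* knockout clone 18 (tumors 11 to 15). The labels call the control cells parental, whereas the methods of the study describe a control knockout plasmid; both knockout lines were single sorted clones that had received a *Pbrm1* knockout plasmid and a repair plasmid with puromycin resistance and RFP, with Cas9 expressed only transiently. Each group is therefore 1 cell line, and *Pbrm1* status cannot be told apart from other differences between the lines. The labels do not say which of these mice, if any, received the PD-1 antibody used elsewhere in the study. In that study untreated *Pbrm1* knockout tumors grew more slowly than control tumors, and mice were killed by tumor size, ulceration or distress. The age and size of these tumors at harvest are not in the labels, and their part in the results was not tested.

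PBRM1 is a subunit of the PBAF form of the SWI/SNF chromatin remodeling complex and is frequently lost in clear cell renal carcinoma. In a dividing cell, D-type cyclins with CDK4 or CDK6 and then cyclin E with CDK2 phosphorylate the RB family, which frees E2F factors to transcribe the genes that license and copy DNA. Later, B-MYB and FOXM1, bound to the MuvB core, switch on the genes of G2 and mitosis, among them the B cyclins, the aurora kinases and the kinesins. Many of these transcripts rise and fall once per division, so in a whole tumor their level depends on how many cells are cycling as well as on transcription in each cell.

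E2F factors are known to act through E2F sites, and the MuvB complexes of the late genes through CHR elements beside CCAAT boxes bound by NF-Y, so the promoters were searched for these letters and for E-boxes, and a few are shown to let a reader see how the early and late genes differ. RefSeq promoter windows of 300 bases, from 250 before to 50 after the start on build GRCm38.p6, matched 36 of the 46 genes and gave 40 windows, since some genes have more than 1 start and the windows of *Prc1* overlap. The windows of *Cdc6*, *Cdk6*, *E2f1* and *Mcm7* lie wholly inside the genes as placed by GENCODE. The bases before those GENCODE starts were therefore not searched. *E2f2* and *Ccnd3* each have a window inside the gene and another near its GENCODE start. Capitals mark every match, on either strand, to the cell cycle homology region (CHR, TTTGAA), the CCAAT box (CCAAT), the E2F site (searched as TTTCCCGC, TTTCGCGC, TTTGCCGC and TTTGGCGC) or the E-box (CACGTG), each counted on its own even where matches touch. *Ccnb2*, *Cdk1* and *Mki67* are shown from the G2 and mitosis genes, *Cdt1* and *Cdc6* from the replication genes and *Cdk4* from the G1 genes. They are not typical in every respect. The windows of *Cdt1* and *Cdc6* lack the CCAAT boxes found in those of *Mcm2*, *Mcm3*, *Mcm5*, *Mcm6*, *Mcm7*, *Pcna* and *Rrm2*. *Cdk4* holds more E-boxes than *Cdk6*, and the windows of *Ccnd3* hold none.
Ccnb2, chr9:70421505-70421804, minus strand: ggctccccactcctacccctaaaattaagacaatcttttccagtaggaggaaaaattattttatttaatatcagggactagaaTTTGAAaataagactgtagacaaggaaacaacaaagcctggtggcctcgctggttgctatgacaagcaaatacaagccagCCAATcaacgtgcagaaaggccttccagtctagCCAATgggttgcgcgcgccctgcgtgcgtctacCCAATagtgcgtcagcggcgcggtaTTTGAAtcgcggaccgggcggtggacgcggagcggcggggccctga
Cdk1, chr10:69352863-69353162, minus strand: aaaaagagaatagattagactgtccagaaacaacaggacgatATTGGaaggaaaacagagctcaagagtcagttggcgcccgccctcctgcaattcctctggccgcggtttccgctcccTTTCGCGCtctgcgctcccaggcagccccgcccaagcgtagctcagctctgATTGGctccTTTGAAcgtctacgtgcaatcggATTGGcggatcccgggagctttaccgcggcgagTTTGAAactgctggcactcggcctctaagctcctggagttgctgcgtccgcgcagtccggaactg
Mki67, chr7:135716330-135716629, minus strand: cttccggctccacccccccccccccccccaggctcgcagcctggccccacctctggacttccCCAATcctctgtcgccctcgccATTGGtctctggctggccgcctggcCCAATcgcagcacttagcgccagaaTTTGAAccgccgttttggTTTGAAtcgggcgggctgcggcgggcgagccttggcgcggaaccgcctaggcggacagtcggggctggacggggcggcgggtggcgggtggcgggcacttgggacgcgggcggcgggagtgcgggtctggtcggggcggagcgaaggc
Cdt1, chr8:122567765-122568064, plus strand: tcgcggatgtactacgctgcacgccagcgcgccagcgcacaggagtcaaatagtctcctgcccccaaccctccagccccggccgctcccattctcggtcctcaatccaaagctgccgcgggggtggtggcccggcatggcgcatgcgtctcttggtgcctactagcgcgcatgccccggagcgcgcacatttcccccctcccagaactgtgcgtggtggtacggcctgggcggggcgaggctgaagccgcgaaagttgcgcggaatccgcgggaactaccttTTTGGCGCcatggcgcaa
Cdc6, chr11:98907901-98908200, plus strand: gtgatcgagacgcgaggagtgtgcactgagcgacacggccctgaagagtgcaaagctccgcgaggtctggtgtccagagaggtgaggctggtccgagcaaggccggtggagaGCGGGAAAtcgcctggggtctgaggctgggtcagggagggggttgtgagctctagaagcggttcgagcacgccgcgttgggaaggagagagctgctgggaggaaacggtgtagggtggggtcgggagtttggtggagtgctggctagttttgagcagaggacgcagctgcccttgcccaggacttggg
Cdk4, chr10:127063285-127063584, plus strand: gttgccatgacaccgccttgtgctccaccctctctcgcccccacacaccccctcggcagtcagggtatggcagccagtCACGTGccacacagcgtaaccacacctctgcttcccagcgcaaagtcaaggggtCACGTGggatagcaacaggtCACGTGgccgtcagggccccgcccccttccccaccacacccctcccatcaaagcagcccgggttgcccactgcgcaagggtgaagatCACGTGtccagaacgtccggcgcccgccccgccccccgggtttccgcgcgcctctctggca
The CHR letters stood in 15 of 19 windows of G2 and mitosis genes (78.9%), in 2 of 17 windows of G1/S, transcription factor and replication genes (11.8%) and in 17.9% of all 32851 promoter windows. CCAAT boxes were found in 18 of the 19 late windows (94.7%), in 11 of the 17 early windows (64.7%) and in 37.4% of all windows. The E2F strings went the other way, with 8 of 17 early windows (47.1%), 1 of 19 late windows (5.3%, that of *Cdk1*) and 2.3% of all windows. E-boxes were found in the windows of *Cdk4*, *Cdk6*, *Ttk* and *Tyms* (10.0% of the 40 windows against 7.2% of all), and *Cdk4* held 4 of them. The windows of *E2f1*, *Mybl2*, *Ccne1* and *Birc5* held none of the searched letters. That of *E2f1* lies inside the gene, so the absence says nothing about the bases before its GENCODE start. These matches describe the letters in the windows and do not show that a factor was bound.

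The deposited values are normalized counts, which could be turned back into whole reads, and the tumors held 32924414 to 49099168 reads on genes. *Pbrm1* checked the labels: its normalized count was 7452 to 9871 in control tumors, 2484 to 3068 in clone 4 and 2572 to 3138 in clone 18 tumors, with no overlap between control and knockout (exact two-sided permutation test over 3003 splits, p = 0.000333, the smallest it can give). The epithelial markers were high in every tumor (summed normalized count of *Krt8*, *Krt18*, *Krt19*, *Cdh1* and *Epcam* 73699 to 110358), *Epcam* passing as higher and *Krt18* as lower in knockout tumors. The 6 macrophage markers summed to 71247 to 93586 in control, 55960 to 70438 in clone 4 and 51385 to 69192 in clone 18 tumors, and *Csf1r*, *Mrc1*, *C1qa* and *C1qb* passed the test as lower in knockout tumors. So did 3 of 8 T cell markers (*Cd3d*, *Cd3g*, *Cd8a*), 2 of 3 B cell markers (*Cd79a*, *Cd79b*), *Nkg7* of 4 NK cell markers and 2 of 5 neutrophil markers (*Ly6g*, *Csf3r*), *Ly6g* being at 0 in all clone 18 tumors. None of the 5 endothelial, 7 fibroblast or 5 muscle markers passed, and the keratinocyte markers *Krt5* and *Krt14* summed to 18.0 at most. The part of these cell types in the results below was not tested, and in bulk tumors fewer cells of a type and less RNA per cell cannot be told apart.

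All 46 genes were well expressed, with mean normalized counts from 356 (*Ccnd2*) to 22400 (*Pcna* and *Top2a*), at least 183 reads in every tumor, and a mean of at least 1000 for 45 of them. Per kilobase of exon, the control tumors had the highest levels for *Pcna* (8770 normalized counts per kb), *Cdk4* (5170) and *Mcm4* (4950) and the lowest for *Ccnd2* (39.2). Together the 46 genes took 0.576% to 0.707% of all normalized counts in control, 0.585% to 0.765% in clone 4 and 0.601% to 0.727% in clone 18 tumors, so the groups overlapped. Some reads cannot be assigned with certainty, since 9 of the 46 genes have a pseudogene with a near-identical stretch in GENCODE, *Ccnb1* having 4. Of the genes that passed in a comparison, *Cdc6* and *Cdk6* have such a copy, *Cdk4*, *Cdk6*, *Ccnd1*, *Ccne2* and *Cdc25c* overlap a gene on the other strand (*Ints8* for *Ccne2*), and *Cdt1* and *Tpx2* overlap one on the same strand.

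To ask whether loss of *Pbrm1* went with a change in the cell cycle program, knockout tumors (n = 10) were set against control tumors (n = 5) by limma with trend on log2(normalized count + 1). Of the 46 genes, 7 passed an adjusted p of 0.05 and 0 of those were lower; the 7 that rose were *Cdk4*, *Ccne1*, *E2f2*, *Cdc6*, *Cdt1*, *Ccnb2* and *Cdc25c*, by 1.13-fold to 1.24-fold. That is 15.2% of the genes, against 22.1% of all 18250 genes tested (9.23% higher and 12.9% lower), so the share was below that of all genes in either direction together and above it in the higher direction alone. The median log2 difference was 0.07 over the 46 genes and -0.02 over all genes tested. For 44 of the 46 genes the 95% interval of the difference lay within 0.5 on the log2 scale (1.41-fold) in either direction, the exceptions being *Ccnd2* (-0.69 to 0.42) and *Ccne2* (0.06 to 0.60). No gene had its 10 knockout tumors entirely above or entirely below the 5 control tumors (0 of 46 each way, against 3.11% of all genes higher and 4.87% lower). Over all genes 1684 of 4040 calls were higher, and after quantile normalization 2265 of 4236, when 9 of the 46 passed, with *Ccne2* and *Foxm1* added.

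**Figure D1:**
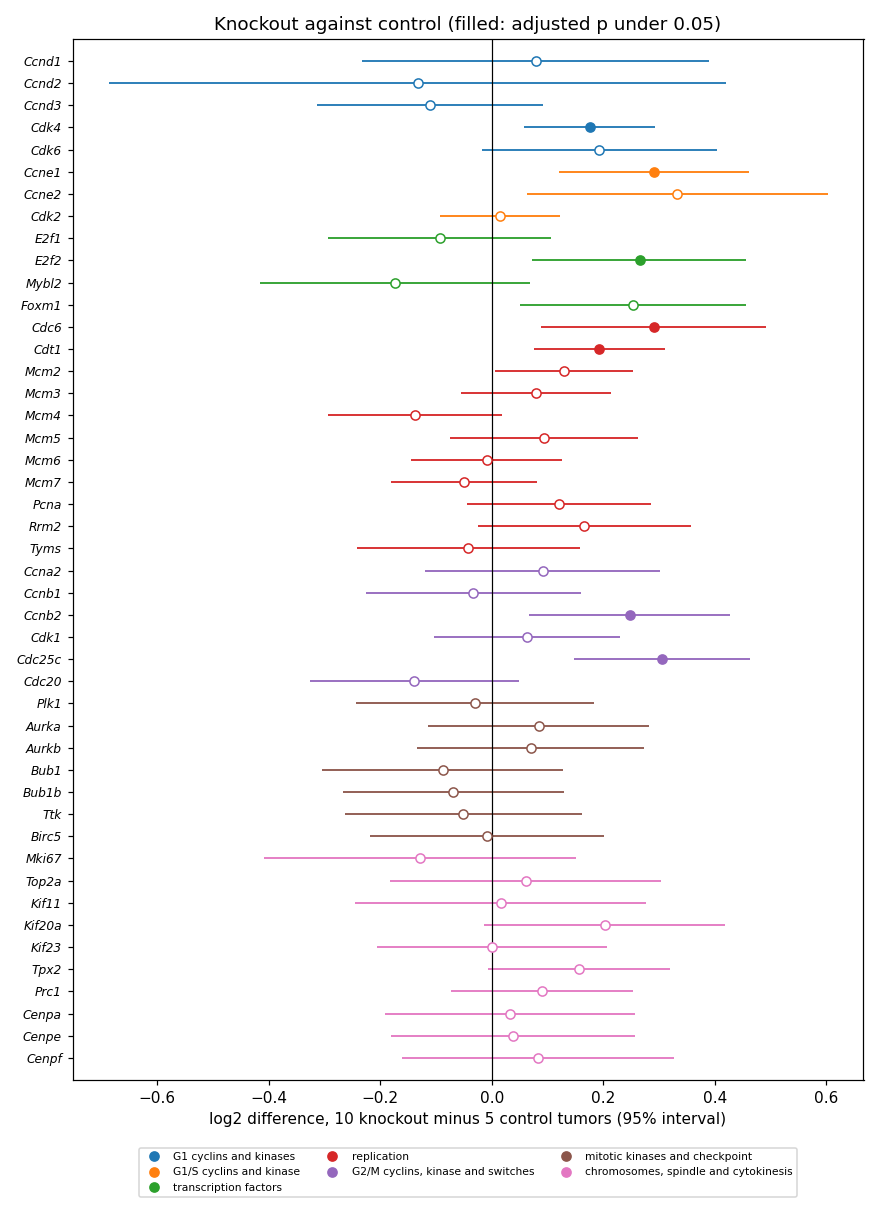
Log2 difference of the mean of 10 knockout tumors from the mean of 5 control tumors (x axis) for each of the 46 genes (y axis), colored by role, with 95% intervals from limma; filled dots passed an adjusted p of 0.05. The 7 filled dots all lie to the right of 0 and most intervals of the mitotic genes span 0.

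Among the G1 genes, the kinase that partners the D cyclins rose while no D cyclin passed in the pooled comparison. *Cdk4* (chr10:127063534-127067920, plus strand) had normalized counts of 16715, 15316, 17493, 16464 and 17931 in the 5 control tumors. Clone 4 had 19551, 18949, 19453, 20499.6 and 18765, and clone 18 had 19236, 17396, 18998, 16909 and 19801. All clone 4 tumors and 3 clone 18 tumors lay above the highest control tumor. The log2 difference was 0.18 ± 0.06 (SE, 95% interval 0.06 to 0.29, adjusted p = 0.0314), and it lost its call without tumor 1, 2 or 4 (0.14 to 0.18, adjusted p 0.0619 to 0.1). In clone 4 the difference was 0.21 ± 0.06 (SE, 95% interval 0.08 to 0.34, adjusted p = 0.0248), a call lost without tumor 2, 4, 6, 8 or 9 (0.18 to 0.21, adjusted p 0.0508 to 0.0665). *Tspan31* overlaps *Cdk4* on the other strand, and the strand setting of the counting is not given in the sources used here. *Cdk6* (chr5:3341485-3531008, plus strand), the other kinase of this step, had 5602, 5023, 5291, 4029 and 5392 in the 5 control tumors. Clone 4 had 7350.1, 6560.0, 6718, 5794 and 5519.7, and clone 18 had 4543, 5400.2, 5149.5, 5848 and 5209. In clone 4, 4 of 5 tumors were above the highest control tumor, and in clone 18 tumor 14 was. Its difference from control was 0.34 ± 0.10 (SE, 95% interval 0.13 to 0.54, adjusted p = 0.0222) in clone 4 and 0.05 (95% interval -0.15 to 0.25) in clone 18, and the clone 4 call was lost without tumor 4, 6 or 8 (0.26 to 0.32, adjusted p 0.0554 to 0.0648). *Ccnd1* (chr7:144929931-144939925, minus strand), cyclin D1, had 7171, 6647, 6503, 6685 and 6349 in the 5 control tumors. Clone 4 had 9798, 9760.3, 9142, 5489 and 8769, and clone 18 had 5852, 6105, 6538, 5836 and 5204. In clone 4, 4 tumors were above all others in the series while tumor 9 was below every control tumor. It did not pass against control in clone 4 (0.34, adjusted p = 0.07) or clone 18 (-0.18, adjusted p = 0.318), but the clones differed, as given below. In clone 4 it passed by edgeR and DESeq2 on the recovered reads. Without tumor 9 it passed as higher in clone 4 (0.49, adjusted p = 0.000127) and as lower in clone 18 (-0.18, adjusted p = 0.0485). The other D cyclins did not pass in the pooled comparison, with *Ccnd3* at -0.11 (95% interval -0.31 to 0.09) and *Ccnd2*, the lowest gene of the 46, at -0.13 (95% interval -0.69 to 0.42); *Ccnd2* ranged from 178 to 684 within clone 4 alone.

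At the G1/S step, cyclin E1 rose in the pooled comparison, cyclin E2 rose in clone 18, and their kinase did not pass. *Ccne1* (chr7:38097984-38107534, minus strand), cyclin E1, had 1778, 1794, 1937, 1856 and 1583 in the 5 control tumors. Clone 4 had 2204, 2098, 2287, 2053 and 1884, and clone 18 had 2368, 2623, 2584, 1887 and 2008. Of the 10 knockout tumors 8 were above the highest control tumor, the exceptions being tumors 10 and 14. The pooled difference was 0.29 ± 0.08 (SE, 95% interval 0.12 to 0.46, adjusted p = 0.0156), with 0.23 (adjusted p = 0.0904) in clone 4 and 0.35 (adjusted p = 0.00976) in clone 18, and only without tumor 5 was the pooled call lost (0.25, adjusted p = 0.0553). *Ccne2* (chr4:11191351-11204779, plus strand), cyclin E2, had 1244, 1143, 1490.2, 1396 and 1278 in the 5 control tumors. Clone 4 had 1474, 1181, 1689, 1881 and 1532, and clone 18 had 2068, 2382, 1504, 1357 and 1693. Tumors 11 and 12 were the highest, and the groups overlapped. Its difference was 0.43 ± 0.14 (SE, 95% interval 0.13 to 0.73, adjusted p = 0.0343) in clone 18, whereas the pooled value was 0.33 (adjusted p = 0.0719), just outside the threshold. The clone 18 call was lost without tumor 1, 2, 5, 11 or 12 (0.33 to 0.43, adjusted p 0.0634 to 0.093), and by limma without trend. *Cdk2*, the kinase that cyclin E activates, was at 0.01 (95% interval -0.09 to 0.12).

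Of the 4 transcription factors, *E2f2* rose and the others did not pass. *E2f2* (chr4:136172394-136196057, plus strand) had 2099, 2260.0, 2510.2, 1984 and 2176 in the 5 control tumors. Clone 4 had 2719, 2506, 2522, 2455 and 1986, and clone 18 had 2873, 3342, 2762, 2558 and 2919.7. Every clone 18 tumor was above every control tumor, while clone 4 overlapped the controls and tumor 10 was at their lower end. The difference was 0.39 ± 0.09 (SE, 95% interval 0.20 to 0.57, adjusted p = 0.00396) in clone 18, 0.14 (adjusted p = 0.32) in clone 4 and 0.27 ± 0.09 (SE, 95% interval 0.07 to 0.46, adjusted p = 0.0446) pooled. The clone 18 call held without any 1 tumor (adjusted p 0.0124 at most over all alternatives), and the pooled call was lost without any 1 of 11 tumors (all but 3, 7, 9 and 10; 0.23 to 0.27, adjusted p 0.0522 to 0.123). Limma without trend also lost the pooled call. *E2f1*, the better known member of the family, was at -0.09 (95% interval -0.29 to 0.11). *Foxm1*, a driver of mitotic genes, was at 0.25 (adjusted p = 0.0704), and *Mybl2*, which encodes B-MYB, at -0.17 (adjusted p = 0.311) pooled and -0.30 (adjusted p = 0.0772) in clone 18.

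Among the replication genes, both licensing loaders rose and no subunit of the MCM helicase passed. *Cdc6* (chr11:98907801-98923940, plus strand), which loads the MCM helicase on origins, had 1284, 1345, 1334, 1147 and 1158 in the 5 control tumors. Clone 4 had 1768, 1436, 1767, 1414 and 1317, and clone 18 had 1579, 1922, 1659.8, 1248 and 1333. In each clone the values spread from within the control range to well above it, and 7 of 10 knockout tumors were above the highest control. The difference was 0.29 ± 0.10 (SE, 95% interval 0.09 to 0.49, adjusted p = 0.0376). Its call was lost without any 1 of tumors 1, 3, 4, 5, 6, 8, 11, 12 and 13 (0.25 to 0.31, adjusted p 0.0508 to 0.0994), and by limma without trend. *Cdt1* (chr8:122568015-122573554, plus strand), its partner in loading, had 2422, 3187, 2699, 2932 and 2718 in the 5 control tumors. Clone 4 had 3059, 3184, 3080.5, 3270.0 and 3112, and clone 18 had 3024, 3336, 3238, 3125 and 3373. The knockout tumors were tightly grouped and lay above 4 of the 5 control tumors, tumor 2 being the exception with a value inside the knockout range. Pooled, *Cdt1* differed by 0.19 ± 0.06 (SE, 95% interval 0.07 to 0.31, adjusted p = 0.0199), and by 0.21 (adjusted p = 0.0254) in clone 18 and 0.18 (adjusted p = 0.0749) in clone 4. Without tumor 1 or 3 the pooled call was lost (0.14 to 0.18, adjusted p 0.0538 to 0.072), and the clone 18 call was lost without tumor 1, 3, 5, 12 or 15 (adjusted p 0.0521 to 0.068). The pooled call was also lost by the test with unequal variances (adjusted p = 0.128). *Mcm2* (chr6:88883474-88898780, minus strand), a subunit of the helicase, had 9351, 10517, 9408, 8776 and 9146 in the 5 control tumors. Clone 4 had 10484, 10964, 10618, 9208 and 9173, and clone 18 had 10261, 11050.2, 11176, 10039 and 10282. The groups overlapped, and the difference was 0.13 ± 0.06 (SE, 95% interval 0.01 to 0.25, adjusted p = 0.13). *Mcm3* to *Mcm7* ran from -0.14 (*Mcm4*) to 0.09 (*Mcm5*) and none passed. *Pcna* (chr2:132249162-132253314, minus strand), the sliding clamp of the polymerases, had 21162, 21135, 21438, 21699 and 19781 in the 5 control tumors. Clone 4 had 22372, 19200.4, 24022, 23899 and 21408, and clone 18 had 24087, 28005, 24131, 19066 and 23890.5. Tumor 12 was the highest and tumor 14 the lowest, and the difference was 0.12 ± 0.08 (SE, 95% interval -0.04 to 0.28, adjusted p = 0.3). The nucleotide synthesis genes *Rrm2* (0.17, adjusted p = 0.213) and *Tyms* (-0.04, adjusted p = 0.807) did not pass.

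**Figure D2:**
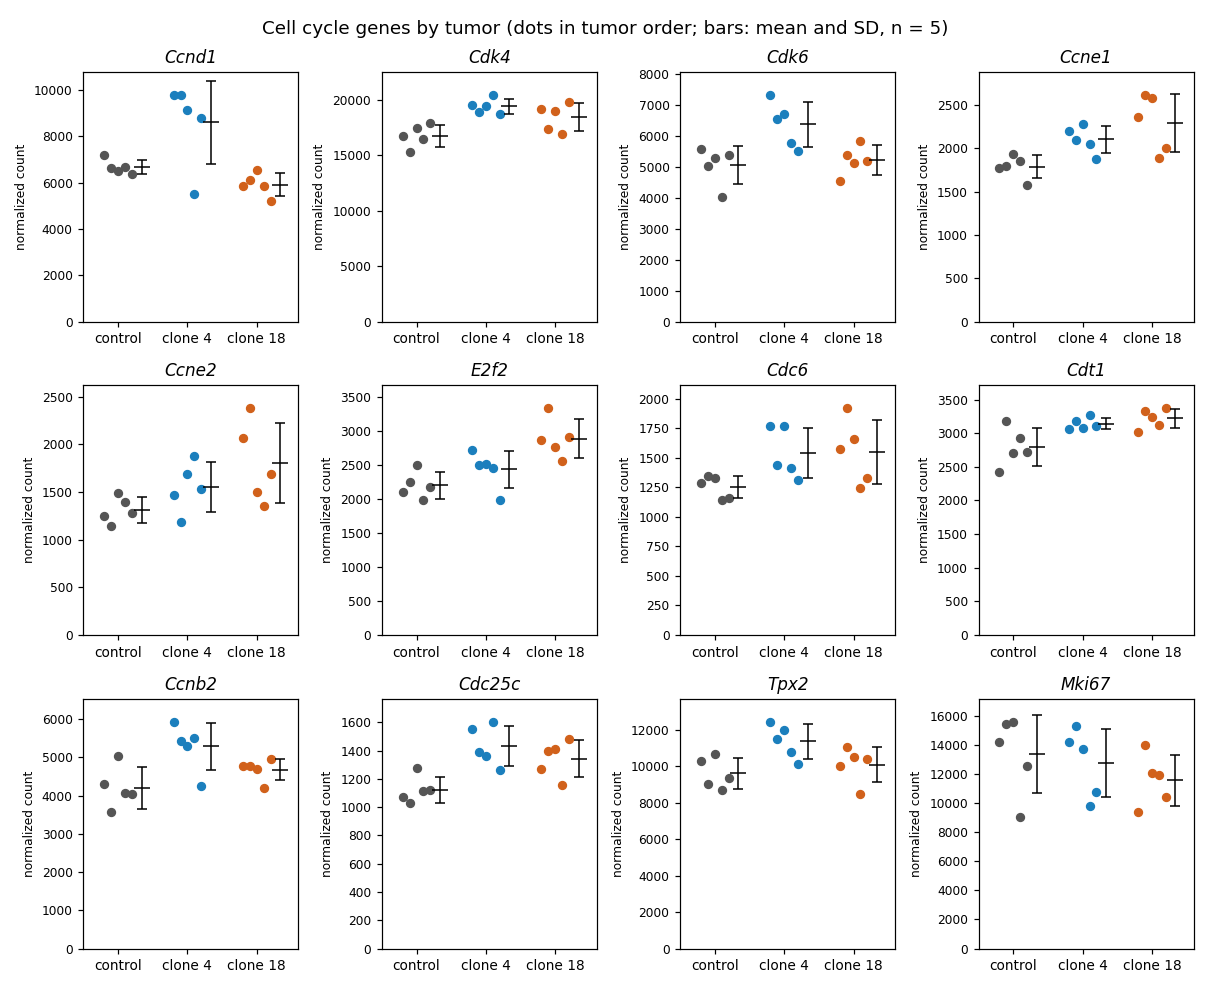
Normalized count (y axis, from 0) of the 11 genes that passed in any comparison and of *Mki67* in each tumor, by group; dots are tumors in order of their number, and the bars beside them give mean and SD (n = 5). *Cdk4* in clone 4 and *E2f2* in clone 18 clear all control tumors, *Ccnd1* is split within clone 4, and *Mki67* overlaps in all groups.

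In G2 and mitosis, a B cyclin and the phosphatase that activates CDK1 rose, while CDK1 itself and the other B cyclin did not pass. *Cdc25c*, that phosphatase, had 1072, 1031, 1276, 1113 and 1124 in the 5 control tumors. Clone 4 had 1553, 1390.4, 1359.7, 1607 and 1267, and clone 18 had 1272, 1395, 1415, 1159 and 1486. Tumor 3 was the highest control, and 7 of 10 knockout tumors were above it. The difference was 0.30 ± 0.07 (SE, 95% interval 0.15 to 0.46, adjusted p = 0.00743) pooled, 0.35 (adjusted p = 0.00834) in clone 4 and 0.26 (adjusted p = 0.0346) in clone 18, which made it the 1 gene of the 46 past the threshold against control in both clones, comparisons that share the control tumors. Its pooled and clone 4 calls held without any 1 tumor (pooled adjusted p 0.0268 at most), while the clone 18 call was lost without tumor 1, 2, 4, 5, 12, 13 or 15 (adjusted p 0.0576 to 0.0851). *Ccnb2* (chr9:70407692-70421547, minus strand), cyclin B2, had 4316, 3564, 5042, 4059.7 and 4037 in the 5 control tumors. Clone 4 had 5938, 5438, 5307, 5502 and 4263, and clone 18 had 4771, 4774, 4690.0, 4207 and 4954. Clone 4 was higher in 4 of 5 tumors than any control, and the clone 18 tumors all lay between the controls' lowest and highest. The difference was 0.25 ± 0.09 (SE, 95% interval 0.07 to 0.43, adjusted p = 0.047) pooled and 0.33 ± 0.09 (SE, 95% interval 0.14 to 0.53, adjusted p = 0.019) in clone 4. The pooled call was lost without any 1 of 11 tumors (all but 3, 10, 13 and 14; 0.19 to 0.26, adjusted p 0.0564 to 0.155) and the clone 4 call without tumor 2 or 6 (adjusted p = 0.0553). Limma without trend and the test with unequal variances also lost the pooled call. *Ccnb1* (chr13:100778650-100786570, minus strand), cyclin B1, had 3697, 3032, 4182, 3238 and 3518 in the 5 control tumors. Clone 4 had 4238, 3505, 3690.3, 3747.9 and 3026, and clone 18 had 3317, 3519, 3687, 2726 and 3117. All groups overlapped, with tumors 3 and 6 highest and tumor 14 lowest, and the difference was -0.03 ± 0.09 (SE, 95% interval -0.23 to 0.16, adjusted p = 0.848). *Cdk1* (chr10:69335146-69352938, minus strand), the kinase of mitotic entry, had 6922, 5673, 7702, 6156 and 6568 in the 5 control tumors. Clone 4 had 7837, 7305, 7456, 7194 and 6076, and clone 18 had 6529, 7435, 6775, 5668 and 6653. Its difference was 0.06 ± 0.08 (SE, 95% interval -0.10 to 0.23, adjusted p = 0.632), and the same tumors marked its extremes except that tumor 2 was almost as low as tumor 14. *Ccna2* (0.09, adjusted p = 0.574) and *Cdc20* (-0.14, adjusted p = 0.296), an activator of the anaphase-promoting complex, did not pass.

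The 7 mitotic kinase and checkpoint genes and the 10 chromosome, spindle and cytokinesis genes included 0 that passed in the pooled comparison, with 0 also at an unadjusted p under 0.05; edgeR and DESeq2 on the recovered reads called none of these 17 either. Their pooled differences ran from -0.13 (*Mki67*) to 0.20 (*Kif20a*). *Mki67* (chr7:135689784-135716361, minus strand), the Ki-67 protein used to count cycling cells, had 14227, 15409, 15602, 9037 and 12575 in the 5 control tumors. Clone 4 had 14182, 15317, 13703, 9776 and 10769.8, and clone 18 had 9401, 13977, 12099, 11900.0 and 10405. Control tumor 4 was the lowest of all 15 and control tumors 2 and 3 the highest, so the spread within the controls covered both clones. The difference was -0.13 ± 0.13 (SE, 95% interval -0.41 to 0.15, adjusted p = 0.54). *Top2a* (chr11:98992943-99024189, minus strand), the topoisomerase that untangles replicated chromosomes, had 24392, 20487, 25155, 18280.2 and 20220.2 in the 5 control tumors. Clone 4 had 27565, 25550.3, 25780.2, 25971 and 20466, and clone 18 had 20762, 25938, 17216, 18215 and 20224. Of the 5 clone 4 tumors 4 were above every control, with tumor 10 back inside their range, and the pooled difference was 0.06 ± 0.12 (SE, 95% interval -0.18 to 0.30, adjusted p = 0.765). *Tpx2* (chr2:152847964-152895321, plus strand), which activates aurora A on the spindle, had 10289, 9008, 10675, 8721 and 9368 in the 5 control tumors. Clone 4 had 12463, 11495, 11989, 10789.7 and 10116, and clone 18 had 10034, 11039, 10539.8, 8501 and 10382. Clone 4 tumors 6 to 9 were above every control, and tumor 10 was inside their range. It passed only in the comparison of clone 4 with control, at 0.24 ± 0.08 (SE, 95% interval 0.07 to 0.41, adjusted p = 0.047), and was at 0.16 (adjusted p = 0.167) pooled. The clone 4 call was lost without any 1 of tumors 2, 4, 5, 6, 7, 8, 9, 11 and 15 (0.21 to 0.26, adjusted p 0.0557 to 0.12), and by limma without trend. The kinases *Plk1* (-0.03, adjusted p = 0.876), *Aurka* (0.08, adjusted p = 0.58) and *Aurkb* (0.07, adjusted p = 0.669) and the checkpoint genes *Bub1* (-0.09, adjusted p = 0.597), *Bub1b* (-0.07, adjusted p = 0.661) and *Ttk* (-0.05, adjusted p = 0.775) overlapped between groups, as did *Birc5*, which encodes survivin. The kinesins *Kif11*, *Kif20a* and *Kif23*, the spindle bundler *Prc1* and the centromere genes *Cenpa*, *Cenpe* and *Cenpf* had pooled differences from 0.00 (*Kif23*) to 0.20 (*Kif20a*).

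Each clone was also compared with the control tumors on its own. In clone 4, 5 of 46 passed, all higher (*Cdk4*, *Cdk6*, *Ccnb2*, *Cdc25c*, *Tpx2*), which is 10.9% against 16.8% of all genes (6.79% higher, 10.0% lower). In clone 18, 5 of 46 passed, all higher (*Ccne1*, *Ccne2*, *E2f2*, *Cdt1*, *Cdc25c*), again 10.9% against 24.7% of all genes (10.4% higher, 14.2% lower) and 28.8% of those 7725 genes. Both comparisons use the same 5 control tumors, and none of these 9 genes passed between the clones. Of the 23 G2 and mitosis genes, 21 had a higher mean in clone 4 than in control (median log2 difference 0.14) and 16 a lower mean in clone 18 (median -0.07). Over the alternatives 18 to 22 were higher in clone 4 (median 0.10 to 0.21, the lowest median without tumor 4 and the highest without tumor 3). In clone 18, 12 to 19 were lower (median -0.137 to -0.005), with 12 without tumor 3, which left 11 higher, and 19 without tumor 12. Of the 18 G1/S, transcription factor and replication genes, 13 had a higher mean in each clone (median 0.10 in clone 4 and 0.09 in clone 18). Beside this, 3801 of those 7725 genes had a higher mean in clone 4 (median -0.003). In clone 18, 3332 of them had a higher and 4393 a lower mean (median -0.033). The late genes often ranked the tumors alike and are not 23 separate observations. Without tumor 10, 9 of the 46 passed in clone 4, and without tumor 6 only *Cdc25c* did. *Cdk4* was the 1 gene whose clone 4 tumors all cleared the controls (5.80% of all genes did so upward and 8.20% downward), and *E2f2* the 1 gene in clone 18 (7.24% upward and 9.82% downward).

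**Figure D3:**
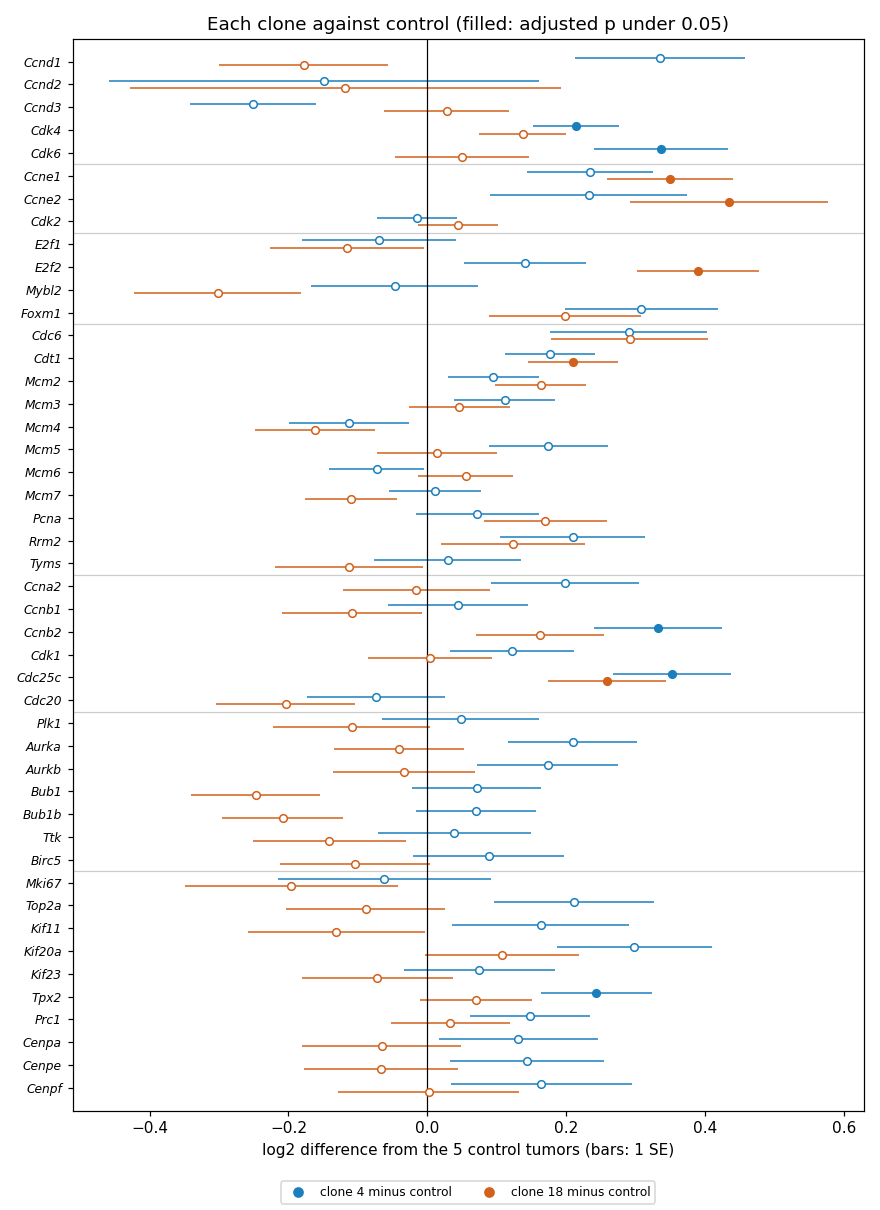
Log2 difference of clone 4 (blue) and clone 18 (orange) from the same 5 control tumors (x axis, bars 1 SE) for the 46 genes (y axis), with lines between role groups; filled dots passed an adjusted p of 0.05. From *Ccna2* down, each orange dot lies to the left of its blue dot.

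The clones were then compared with each other, in the same fit, so that the control tumors enter the estimate of the spread but not the difference. Of the 46 genes 1 passed, *Ccnd1*, lower in clone 18 (2.17% against 4.62% of all genes, 2.49% higher and 2.13% lower, and 6.08% of genes with a mean of at least 1000), and 11 had an unadjusted p under 0.05. The *Ccnd1* difference was -0.51 ± 0.12 (SE, 95% interval -0.77 to -0.26, adjusted p = 0.0206), that is 0.7-fold. The call was lost without tumor 6, 7, 8 or 15 (-0.48 to -0.46, adjusted p 0.054 to 0.0593), and by limma without trend. Without tumor 9 the difference was -0.67 (adjusted p = 2.2e-05), and the gene listed as *LTO1* overlaps *Ccnd1* on the other strand. All 23 G2 and mitosis genes had a lower mean in clone 18 than in clone 4, by 0.09 (*Cdc25c*) to 0.32 (*Bub1*) on the log2 scale with a median difference of -0.18, and 0 of them passed. Over all genes tested the median was -0.01. Over the 7725 genes whose mean reached 1000 normalized counts it was -0.03, with 4631 of them lower in clone 18. The nearest to the threshold were *Bub1* (-0.32, adjusted p = 0.0607) and *Bub1b* (-0.28, adjusted p = 0.0824), which DESeq2 called together with *Ccnd1* and *Ccnd3*. The 23 of 23 direction held under each scaling, each test and the removal of any 1 tumor, with medians from -0.23 to -0.13, but these genes often ranked the tumors alike and are not 23 separate observations. In the early group, 9 of 18 genes had a lower mean in clone 18. *Ccnd3*, at 0.28 (adjusted p = 0.0908), and *Cdk6*, at -0.29 (adjusted p = 0.104), did not pass, and neither did *E2f2* (0.25, adjusted p = 0.129) or *Ccne2* (0.20, adjusted p = 0.491), so the calls that *E2f2* and *Ccne2* had only in clone 18 are not shown to differ from clone 4. No gene had clone 18 tumors entirely on one side of the clone 4 tumors (0 of 46 each way, against 2.64% of all genes higher and 2.88% lower).

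Tumors of the same group also differed from each other in these genes. The within-group SD of the log2 values had a median of 0.17 over the 46 genes (0.08 to 0.57), against 0.13 over genes with a mean of at least 1000. Within a group, the late genes often ranked the tumors alike. In the controls, tumor 3 had the highest value for 23 of 23 G2 and mitosis genes, whereas it was the highest control tumor for 14.5% of the 7725 genes. In clone 4, tumor 6 was highest for 17 and tumor 10 lowest for 19 of the 23. In clone 18, tumor 12 was highest and tumor 14 lowest for 17 each. Over all 46 genes tumor 10 was the lowest of its group for 32 and tumor 14 for 34, against 30.9% and 29.7% of the 7725 genes. Relative to each gene's median over the 15 tumors, the late genes stood at a median of 0.32 in tumor 6 and 0.27 in tumor 3, and at -0.23 in tumor 14, -0.17 in tumor 2 and -0.16 in tumor 4. The early genes varied less, from -0.15 in tumor 5 to 0.20 in tumor 12. Beside this, the summed fibroblast markers were lowest of all tumors in tumor 6 (18715) and highest in tumor 10 (184179). However, tumor 12 had the second highest sum (121839) with high cell cycle genes. The summed muscle markers were 73.2 to 154.4 in control tumors, against 1045 in tumor 10 and 1092 in tumor 14. They were also high in tumors 9 (555), 11 (1529) and 15 (1393), and 51.8 to 119.1 in the other knockout tumors. The part of these cell types was not tested.

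**Figure D4:**
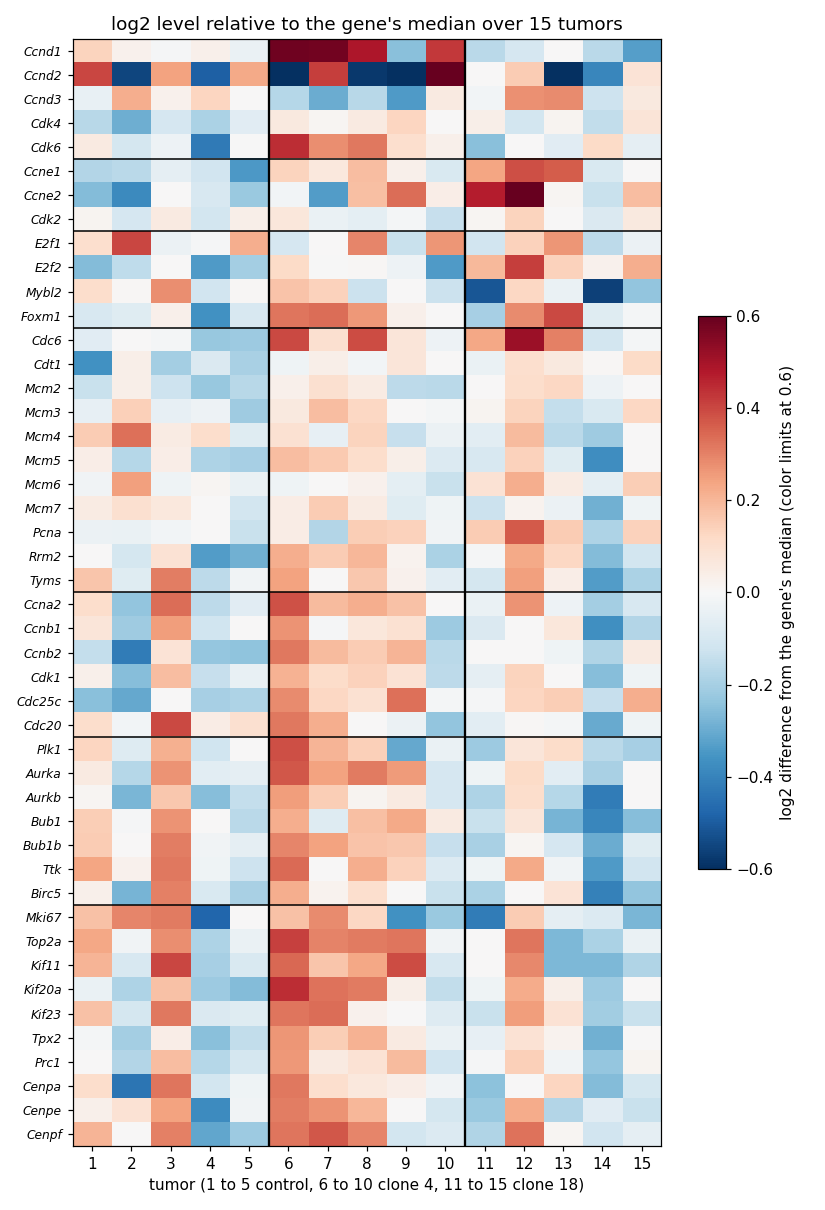
Log2 level of each of the 46 genes (rows, by role, black lines between role groups) in each tumor (columns, black lines between control, clone 4 and clone 18) relative to the gene's median over the 15 tumors; red is higher and blue lower, with color limits at 0.6. In the rows of the G2 and mitosis genes, tumors 3 and 6 are mostly red and tumor 14 mostly blue.

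The rest of the pathway was read from 4 further lists. Of 32 other replication genes, 5 passed in the pooled comparison (15.6%, beside 22.1% of all genes), 2 higher and 3 lower. *Prim1*, the primase subunit, rose by 0.34 (adjusted p = 0.00178), from 3124 ± 320 (SD, n = 5) to 3963 ± 325 normalized counts (SD, n = 10), with all 10 knockout tumors above all controls. *Dut*, which removes dUTP, rose by 0.21 (adjusted p = 0.0118). The falls were *Gins1* (-0.29, adjusted p = 0.0151), of the replicative helicase, *Rrm1* (-0.27, adjusted p = 0.00562), the large subunit of ribonucleotide reductase, and *Chaf1b* (-0.28, adjusted p = 0.00613), a histone chaperone, which went from 8477 ± 545 to 6985 ± 611 with all 10 knockout tumors below all controls. Replication genes thus moved both ways, and the list had a median of 0.01. Of all genes tested, 3.11% had the 10 knockout tumors above all controls and 4.87% had them below. The call of *Gins1* was lost without tumor 3 (-0.26, adjusted p = 0.0508). Of 50 other mitosis genes, 2 passed (4.0%), *Wee1* (0.27, adjusted p = 0.011), the kinase that holds CDK1 inactive, and *Ckap2* (0.20, adjusted p = 0.0437), a spindle protein, both higher. *Ckap2* lost its call without any 1 of 11 tumors (all but 3, 10, 13 and 14; adjusted p 0.0504 to 0.13), and by limma without trend. In clone 18 against clone 4, 48 of these 50 had a lower mean (median -0.18).

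Upstream of these genes, 3 of 19 RB, E2F and DREAM regulators passed in the pooled comparison (15.8%, beside 22.1% of all genes). *Rbl1*, which encodes the RB relative p107, rose by 0.43 (adjusted p = 0.00019), from 4850 ± 317 to 6535 ± 587 normalized counts, and all 10 knockout tumors were above all controls. *Tfdp2*, a partner of E2F factors, fell (-0.47, adjusted p = 0.000294, from 1928 ± 109 to 1400 ± 151), as did *Max*, the partner of MYC (-0.33, adjusted p = 0.00152, from 1898 ± 147 to 1507 ± 124), each with all 10 knockout tumors below all controls. All of these 3 calls held without any 1 tumor and under each alternative test. Of all genes tested, 3.11% were likewise entirely above the controls and 4.87% entirely below them. *Rbl1* changed about equally in clone 4 (0.42, adjusted p = 0.00108) and clone 18 (0.43, adjusted p = 0.000693), and by more than any of the 46 genes in the pooled comparison. Of 7 CDK inhibitors, 2 passed (28.6%, beside 22.1% of all genes). *Cdkn1b*, which encodes p27, rose by 0.23 (adjusted p = 0.045) and *Cdkn1a*, which encodes p21, by 0.60 (adjusted p = 0.0499). Both calls were fragile, lost without any 1 of 11 tumors (adjusted p 0.051 to 0.112 for *Cdkn1b*, all but 4, 7, 10 and 13, and 0.0566 to 0.175 for *Cdkn1a*, all but 2, 4, 6 and 7), and *Cdkn1a* passed in 2 of 9 other alternatives. *Cdkn1b* passed in 7 of 9, its call being lost by limma without trend and by the test with unequal variances. *Cdkn2b*, named after its values were seen as the 1 inhibitor that differed between the clones, was lower in clone 4 than in control (-0.47, adjusted p = 0.000634) and higher in clone 18 than in clone 4 (0.51, adjusted p = 0.00093), with 1468 ± 140 against 1028 ± 84.2 normalized counts and 1419 ± 111 in control (SD, n = 5 each).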

How the data were processed

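RNA from 15 tumors was sequenced by the authors, who aligned reads with tophat2 to mm10, counted them per gene with HTSeq and normalized the counts with DESeq. The deposited values are these normalized counts, a signal on a linear scale, in 1 table. Versions, gene annotation and strand setting are not given in the sources used here. Low values were whole multiples of a step of 0.8807 to 1.309 per tumor, and 100.0% of values up to 8000 came out whole within 0.05, which recovered 32924414 to 49099168 reads per tumor (median 40860659).

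The 29 genes at 0 in every tumor were dropped, and limma 3.58.1 with trend (R 4.3.3) was fitted to log2(normalized count + 1) of the other 18250 genes, for 10 knockout against 5 control tumors as in the study, and in a 3-group fit for the clones. Tests were two-sided with Benjamini-Hochberg adjustment over all genes tested and a threshold of 0.05. A difference is on the log2(value + 1) scale, which understates changes of low genes. The labels name separate tumors, and p-values of the clone comparisons measure the spread between tumors of 1 cell line per group. In the pooled comparison the 10 knockout tumors of both clones formed 1 group with no term for the clone. Its p-values and intervals therefore rest on differences between tumors and between the clones together, and do not measure spread over independent knockout lines. Tumors of a group differed beyond counting noise (chi-square per degree of freedom at least 17.69 in 30 pairs).

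Alternatives were pseudocounts of 0.1 and 5, a mean filter of 10, upper quartile and quantile scaling, limma without trend, a two-sample test with unequal variances in the pooled comparison, DESeq2 1.42.0 and edgeR 4.0.16 applied to those reads, and leaving out each tumor. The pooled fits were tried on simulated counts with larger changes than those reported for these genes. That trial does not show how the fits do for small changes or in the clone comparisons. Values by tumor are given for genes past the threshold in any comparison and for *Mki67*, *Top2a*, *Ccnb1*, *Cdk1*, *Pcna* and *Mcm2*; in each further list the up to 4 largest rises and falls past the threshold are named. The members and lists were chosen with earlier results of these data known. Gene positions are from GENCODE on GRCm38. The genes of the further mitosis list that passed between the clones are not reported here.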

Additional observations from a re-analysis of the deposited data

Results flagged for a closer look

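Within groups of 5 tumors, 5 of 138 sets of values held 1 tumor far from the other 4 by Dixon's criterion, and chance flags about 1 in 20 (6.9 expected). In clone 4, *Ccnd1* was 5488.7 normalized counts in tumor 9 against 8769.1 to 9797.5 in the other 4, and *Top2a* was 20465.6 in tumor 10 against 25550.3 to 27565.2. In the control tumors, *Mcm6* was 17776.2 in tumor 2 against 14578.3 to 15087.9, and *Cdc20* was 5793.9 in tumor 3 against 4354.4 to 4727.9. In clone 18, *Cdc20* was 3567.4 in tumor 14 against 4213.6 to 4414.7.

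The clones differed in *Ccnd1* by a test of the difference itself, with a log2 difference of -0.51 in clone 18 relative to clone 4 (limma, adjusted p = 0.0206).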

How the results depend on the processing

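Of 1104 pooled log2 differences (46 genes under 24 alternatives), 1012 kept their direction and side of the threshold, 42 lost the call, 9 gained it and 41 changed sign. The number of the 46 genes past the threshold was 7 in knockout against control, 4 by limma without trend and 2 to 7 without 1 tumor. It was 5 in clone 4, 8 by DESeq2 and 1 to 9 without 1 tumor (1 without tumor 6, 9 without tumor 10). It was 5 in clone 18 and 2 to 7 without 1 tumor. Between the clones it was 1, 0 by limma without trend, 4 by DESeq2 and 0 to 4 without 1 tumor. *Cdc25c* passed in the pooled comparison under all 24 alternatives. Among the other lists, replication genes past the threshold numbered 5 and 8 by DESeq2, mitosis genes 2 and 1 to 5 over all alternatives, and CDK inhibitors 2 and 0 to 3. The cause of these shifts was not tested.

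Sign changes were limited to genes that did not pass and lay near 0. The pooled log2 difference of *Mcm6* was 0.029 after quantile normalization and 0.009 by edgeR, that of *Plk1* 0.001 by edgeR, and that of *Birc5* 0.001 after upper quartile scaling, 0.016 after quantile normalization and 0.009 by edgeR. Without 1 tumor it ran from -0.007 to 0.033 for *Cdk2*, -0.031 to 0.044 for *Mcm6*, -0.092 to 0.024 for *Tyms*, -0.086 to 0.03 for *Ccnb1*, -0.073 to 0.016 for *Plk1*, -0.103 to 0.006 for *Ttk*, -0.067 to 0.079 for *Birc5*, -0.044 to 0.106 for *Kif11*, -0.036 to 0.069 for *Kif23*, -0.07 to 0.121 for *Cenpa* and -0.054 to 0.1 for *Cenpe*.

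No paired analysis was possible because no number in the labels links tumors of different groups. The fewest reads of any of these genes in a tumor were 183 (*Ccnd2*), and an effect of depth was not tested. Each group is 1 cell line, so a difference between lines and one of genotype cannot be told apart.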
